A study of Mus musculus with 2 samples.

Results

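Cytotoxic lymphocytes kill through granules and signal through cytokines, and 9 genes of that programme were followed here in the mouse uterus. They were chosen by symbol among the 32285 genes of the deposited count tables, and all 9 were found: Gzma, Gzmb, Gzmc, Prf1, Nkg7, Ifng, Xcl1, Eomes and Tbx21. Their counts were not used to group the cells. The study prepared single-cell RNA libraries from whole uteri of C57BL/6J female mice aged 6 months, using the Chromium 3′ v3 chemistry. One library pooled 3 control mice with floxed Prickle1 alleles (Prickle1 f/f), and the other pooled 3 conditional knockout mice (cKO, Prickle1 f/f MiC). MiC is not spelled out in the labels, nor is the promoter behind it or whether the control mice carry it, and both carry the same genotype entry, wild-type. By the series title, the loss of Prickle1 was aimed at the myometrium, the smooth muscle layer of the uterus, so no lymphocyte gene was a target. With 1 pooled library per group the spread between mice is unknown. No test between groups was therefore made, and every interval below is an exact 95% interval that covers counting error only.

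Granzymes are serine proteases stored in the granules of natural killer (NK) cells and cytotoxic T cells, and perforin, the product of Prf1, forms the pores that let them into a target cell. Activated NK cells also secrete interferon gamma (Ifng) and the chemokine Xcl1, whose receptor Xcr1 marks a class of dendritic cells. The transcription factors Eomes and Tbx21 (T-bet) are T-box proteins that direct NK cell maturation and the expression of these effector genes. The uterus holds its own tissue-resident NK cells, known for their part in the remodelling of the lining during pregnancy.

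The libraries held 45035801 (control) and 34261441 (cKO) unique molecular identifiers (UMIs), each UMI standing for 1 captured RNA molecule. Cells were kept with 1000 or more UMIs, 500 or more genes and mitochondrial UMIs of 20% or less, which left 3490 control and 3586 cKO cells with medians of 4953 and 4903 UMIs. Of their barcodes 6 occurred in both libraries, none of them among the T or NK cell-like cells of both. Prickle1, the targeted gene, did not come out lower under the cKO label. It had 96 UMIs in all control cells and 265 in all cKO cells, and in smooth muscle-like cells its level was 14.8 and 24.4 CPM (UMIs of a gene per 1000000 UMIs of the class), a ratio of 1.65 (0.897 to 3.22). A 3′ tag may lie outside the deleted part, so this count does not check the deletion. The libraries are called control and cKO below by their labels alone, and every direction rests on those labels.

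T or NK cell-like cells were 358 of the control cells (10.3%) and 770 of the cKO cells (21.5%). Clustered again without the 9 genes and 53 related genes, they separated into NK cell-like cells, alpha beta and gamma delta T cell-like cells, type 2 innate lymphoid (ILC2)-like cells and clusters that stayed unnamed. NK cell-like cells numbered 155 (4.44% of control cells, 3.78 to 5.18) and 283 (7.89% of cKO cells, 7.03 to 8.82). The larger share in cKO depended on the denominator: the log2 ratio was 0.83 (0.54 to 1.12) among all cells, 0.19 (-0.09 to 0.49) outside the epithelium and -0.24 (-0.52 to 0.06) among T or NK cell-like cells. Epithelium-like cells numbered 1313 in control and 109 in cKO. All 13 NK cell markers, none of them among the 9 genes, had UMIs in both libraries, with summed levels of 5732 and 6471 CPM in NK cell-like cells. Il2rb alone had 2457 and 3760 CPM of these sums. Among the others Ncr1, Klrb1c, Klre1, Klrd1 and Klra9 were lower in cKO NK cell-like cells, and Klra4 and Klra7 were higher. The 6 fibroblast markers together reached 27.2 and 23.2 CPM there. T cell markers were not at 0: the 12 alpha beta T cell markers summed to 672 and 408 CPM, and the 13 gamma delta T cell markers to 411 and 111 CPM. Their part in the results was not tested.

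The 9 genes lie on 7 chromosomes (GRCm38, GENCODE annotation). Gzmb (ENSMUSG00000015437) is at chr14:56258838-56262260 and Gzmc (ENSMUSG00000079186) at chr14:56231441-56234656, neighbours on the minus strand. Gzma (ENSMUSG00000023132) is on chromosome 13, at chr13:113093825-113100981 on the minus strand. Prf1 (ENSMUSG00000037202, chr10:61297833-61304680) and Ifng (ENSMUSG00000055170, chr10:118441046-118445892) are both on the plus strand of chromosome 10. Nkg7 (ENSMUSG00000004612) is at chr7:43437073-43438249 on the plus strand and Xcl1 (ENSMUSG00000026573) at chr1:164931644-164935527 on the minus strand. Eomes (ENSMUSG00000032446) is at chr9:118478212-118486132 on the plus strand and Tbx21 (ENSMUSG00000001444) at chr11:97098071-97115331 on the minus strand. In the last 500 bases of their longest coding transcripts, where 3′ reads fall, none of the 9 genes shared a 50-base stretch with another annotated gene. The granzyme copies Gzmd, Gzme and Gzmf did: 20.6%, 18.2% and 7.1% of their 50-base windows also occurred in another granzyme gene. Counts of those 3 are uncertain, because reads in such windows can be split or lost between copies.

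The promoters of the 3 granzyme genes and Prf1 are shown because these genes carry the same granule but differed between the libraries to unequal degrees. Each is the 250 bases before the RefSeq transcription start (GRCm38.p6), 5′ to 3′ on the strand of the gene, and capitals mark matches to the Runx letters TGTGGT on either strand. The windows are chr13:113100982-113101231 (minus strand) for Gzma, chr14:56262335-56262584 (minus strand) for Gzmb, chr14:56234658-56234907 (minus strand) for Gzmc and chr10:61297586-61297835 (plus strand) for Prf1.
Gzma promoter: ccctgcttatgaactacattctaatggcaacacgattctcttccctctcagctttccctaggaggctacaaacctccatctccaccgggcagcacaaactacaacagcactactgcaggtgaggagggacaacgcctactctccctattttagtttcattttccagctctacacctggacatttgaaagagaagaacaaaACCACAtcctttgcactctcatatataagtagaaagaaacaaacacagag
Gzmb promoter: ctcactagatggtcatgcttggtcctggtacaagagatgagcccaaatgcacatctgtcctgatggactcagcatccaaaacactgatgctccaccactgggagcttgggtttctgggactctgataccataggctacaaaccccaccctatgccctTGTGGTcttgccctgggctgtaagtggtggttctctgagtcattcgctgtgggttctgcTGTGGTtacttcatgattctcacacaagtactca
Gzmc promoter: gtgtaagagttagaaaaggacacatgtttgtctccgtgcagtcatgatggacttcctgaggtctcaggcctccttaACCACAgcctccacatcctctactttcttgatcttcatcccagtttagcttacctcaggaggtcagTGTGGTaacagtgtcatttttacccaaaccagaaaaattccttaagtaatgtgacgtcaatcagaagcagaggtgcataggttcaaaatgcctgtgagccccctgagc
Prf1 promoter: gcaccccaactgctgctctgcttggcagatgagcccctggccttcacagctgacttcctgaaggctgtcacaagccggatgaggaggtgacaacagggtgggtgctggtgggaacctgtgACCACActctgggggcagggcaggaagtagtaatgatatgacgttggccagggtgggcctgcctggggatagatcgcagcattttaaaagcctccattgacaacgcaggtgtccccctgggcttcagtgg
The Runx letters occurred once in the windows of Gzma and Prf1 and at 2 places in those of Gzmb and Gzmc, and 14.05% of all 32851 promoter windows of this length hold them. The T-box letters GGTGTGA, searched on both strands, were absent from these 4 windows and present in those of Nkg7 and Xcl1, against 3.33% of all windows. Such a match is a run of letters, not a measured binding site.

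Most of the expression of these genes was in NK cell-like cells. In the control library that class held 97.9% of all Gzmc UMIs, 92.8% of Xcl1, 89.7% of Prf1, 81.0% of Nkg7, 75.4% of Eomes, 70.8% of Gzmb, 60.5% of Tbx21, 59.2% of Gzma and 51.9% of Ifng. In the cKO library the shares ran from 59.2% for Gzmb to 86.6% for Gzmc. A further 38.1% of the control Gzma UMIs and 14.4% of the cKO ones were in T or NK cell-like cells that stayed unnamed. Among these was a dividing cluster led by Mki67, with 12 control and 15 cKO cells, in which Gzma was at 2199 and 981 CPM. In control 9 of those cells had Gzma, whereas all 141 cKO UMIs were in 1 of the 15 cells. In fibroblast-like cells, which are not known to make these proteins, at most 0.588% of cells had a UMI of any of the 9 genes, at medians of 9439 and 10074 UMIs per cell. Droplets without a cell, with at most 100 UMIs, held Gzmb at 68.3 and 66.0 CPM and Gzma at 33.8 and 27.8 CPM, so some of the RNA of both was free in the suspension.

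**Figure D1:**
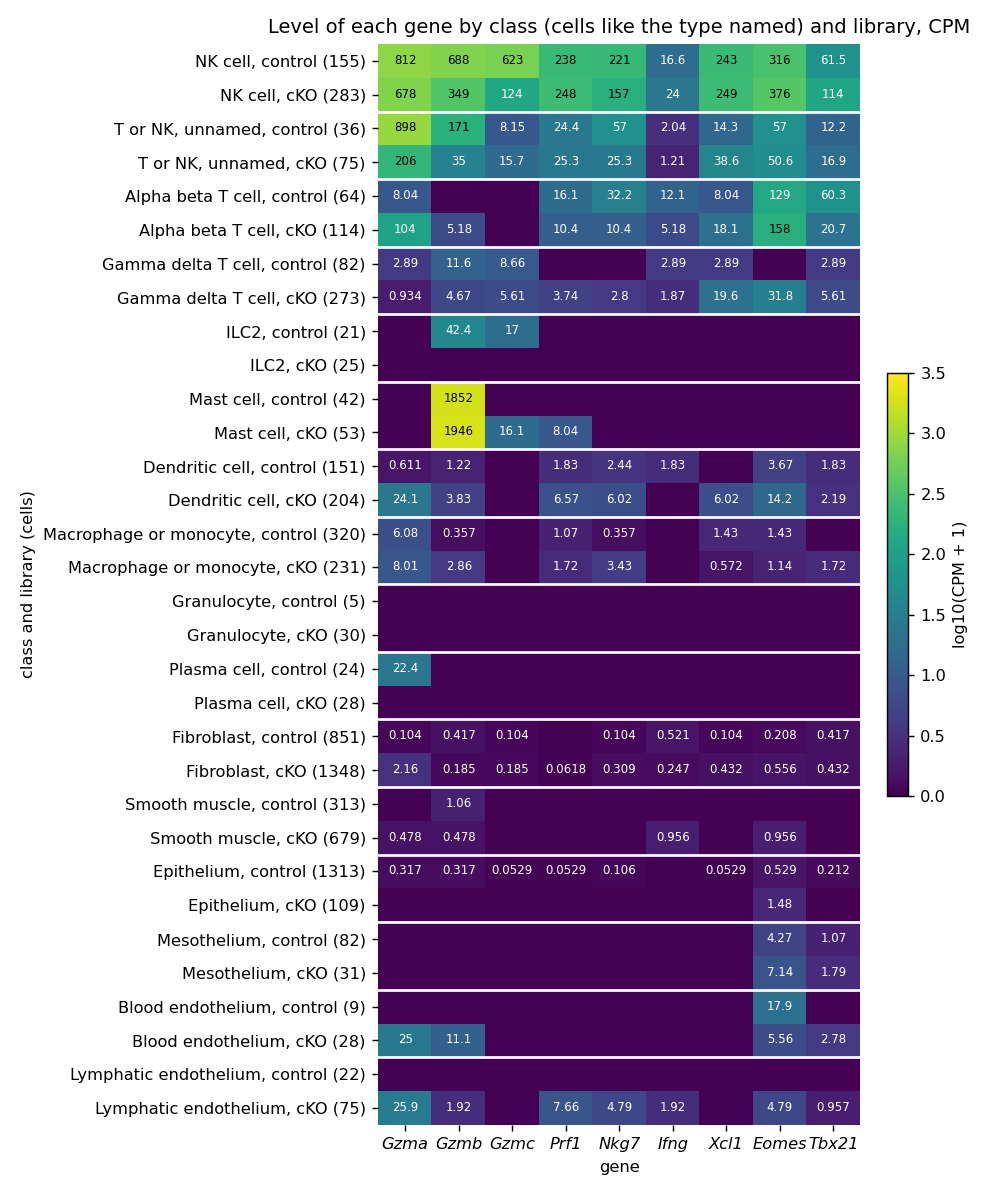
Level of each gene in CPM (printed in each field, colour on a log10 scale) in every marker-named class of each library, with the number of cells in brackets and empty fields at 0 UMIs. NK cell-like cells carried all 9 genes in both libraries, and mast cell-like cells carried Gzmb at 1852 and 1946 CPM with 0 to 2 UMIs of any other.

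The exception was Gzmb. Mast cell-like cells, which store proteases in granules of their own, had 133 Gzmb UMIs in 42 control cells (1852 CPM, 1551 to 2195) and 242 in 53 cKO cells (1946 CPM, 1708 to 2207). Both levels were above the NK cell-like levels of the same library, 688 and 349 CPM. A Gzmb UMI was found in 61.9% (45.6 to 76.4) of control and 54.7% (40.5 to 68.4) of cKO mast cell-like cells, although their medians were 1414 and 1582 UMIs. Of all Gzmb UMIs, these few cells held 16.2% in control and 32.9% in cKO. Perforin was not part of that picture. Prf1 had 0 UMIs in the control mast cell-like cells, where 3 UMIs would be 41.8 CPM, and 1 in the cKO cells. Gzma, Nkg7, Ifng, Xcl1, Eomes and Tbx21 had 0 UMIs there in both libraries. Under 50 cells in control, the class was not compared between libraries.

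The same stretch of chromosome 14 showed both patterns gene by gene. Cma1 and Mcpt4, mast cell chymases that lie on the same chromosome, had 9624 and 8983 CPM in control mast cell-like cells and 22.5 and 3.55 CPM in control NK cell-like cells. Both were among the markers that named the mast cell-like class, so their high level there followed from the naming. Gzmc, next to Gzmb, had 0 and 2 UMIs in mast cell-like cells and 526 and 155 in NK cell-like cells. Gzmd and Gzme had 102 and 95 UMIs in control NK cell-like cells and 0 in control mast cell-like cells. Gzmg and Gzmn, which lie between them and Gzmc, had 0 UMIs in both classes of both libraries. Of the 15 protease genes of this locus, Gzmb alone had more than 50 UMIs in both classes of either library.

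Among the granule genes, Gzmc was the one with the widest difference between the libraries. Gzmc, a granzyme of activated killer cells, had 526 UMIs in 155 control NK cell-like cells (623 CPM, 571 to 678) and 155 in 283 cKO cells (124 CPM, 105 to 145). The ratio of cKO to control was 0.199 (0.165 to 0.239), and the log2 ratio with 5 CPM added to both levels was -2.28. Gzmb, the main apoptosis-inducing granzyme, had 581 UMIs in control (688 CPM, 633 to 746) and 436 in cKO (349 CPM, 317 to 383), a ratio of 0.507 (0.447 to 0.575). Both intervals lay apart between the libraries, with cKO the lower one.

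The remaining granule genes differed less. Gzma, a granzyme with tryptase activity, had 812 CPM in control (752 to 875) and 678.5 CPM in cKO (634 to 726), a ratio of 0.836 (0.755 to 0.925). Nkg7, a granule membrane protein involved in granule release, had 221 CPM in control (191 to 255) and 157 CPM in cKO (136 to 180), a ratio of 0.709 (0.577 to 0.870). Prf1 had 238 CPM in control (206 to 273) and 248 CPM in cKO (221 to 277), a ratio of 1.04 (0.870 to 1.25). Gzmc, Gzmb, Gzma and Nkg7 were thus lower in cKO beyond counting error, although the Gzma log2 ratio of -0.26 became 0.06 with each cell thinned to 1000 UMIs. The share of all genes of the class that pass this rule is not given here. The Prf1 interval of 0.870 to 1.25 likewise covers UMI counting only, so it sets no limit on a difference between the groups.

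**Figure D2:**
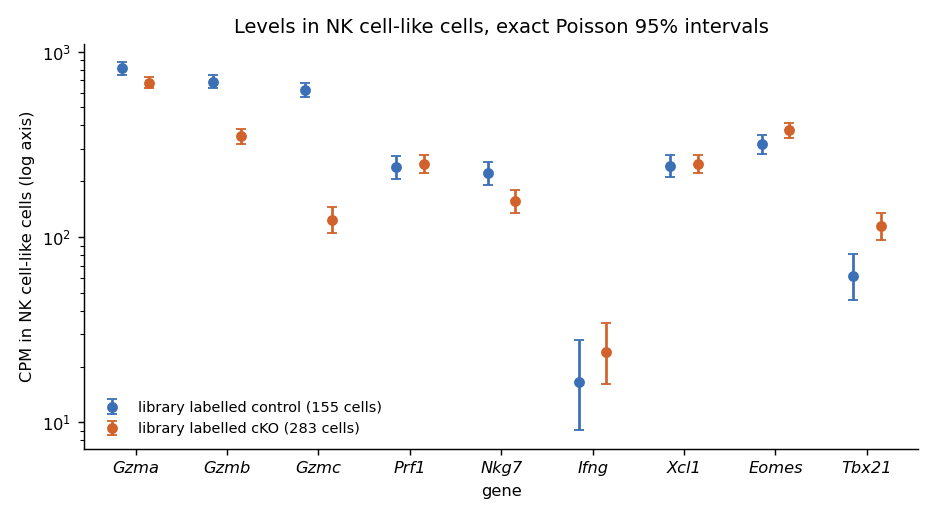
Level of each gene in NK cell-like cells (CPM, log axis) in the control library (blue) and the cKO library (orange), with bars for exact Poisson 95% intervals. Gzmb and Gzmc sit apart, at 688 and 623 CPM in control against 349 and 124 CPM in cKO, while the Prf1 and Xcl1 intervals of the libraries overlap.

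Granzyme UMIs sat in few cells. The 16 control cells with the most Gzmc held 94.1% of its UMIs in NK cell-like cells, and the 29 such cKO cells held 91.6%. For Gzmb these shares were 84.7% and 85.1%, and for Gzma 81.1% and 75.9%. Eomes was spread more evenly, with 44.9% and 39.2%. A single control cell had 121 of the 526 Gzmc UMIs (23.0%), and the highest cKO cell had 22 of 155. Without the 5 cells of each library with the most Gzmc UMIs, a check chosen after the data were seen, the log2 ratio was -1.40 for Gzmc and -0.57 for Gzmb.

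The share of cells with a UMI differed less than the level. Gzmc was found in 35 control cells (22.6%, 16.3 to 29.98) and 42 cKO cells (14.8%, 10.9 to 19.5), at medians of 4846 and 4027 UMIs per cell over the class. With each cell thinned to 1000 UMIs the shares were 10.3% (6.02 to 16.2) and 8.48% (5.51 to 12.4), whose intervals overlap. Cells with a Gzmc UMI held 15.03 of them on average in control and 3.69 in cKO. For Gzmb the shares were 26.5% and 25.4%, with 14.2 and 6.06 UMIs per cell that had any. Fewer UMIs per positive cell, more than fewer positive cells, thus went with the lower level of both genes.

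**Figure D3:**
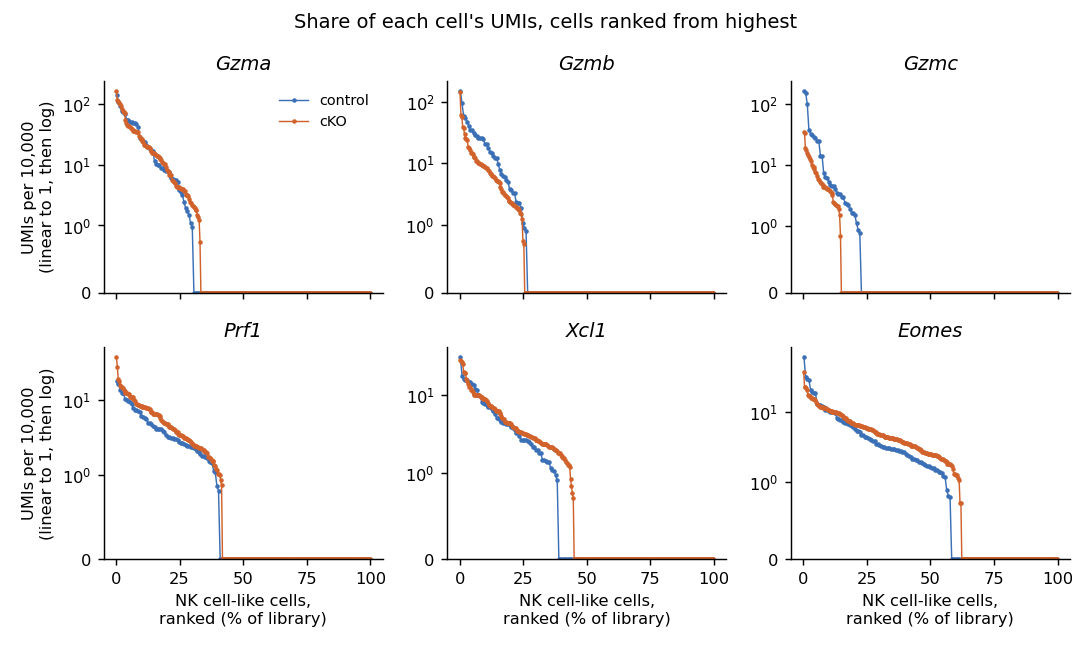
UMIs of each gene per 10000 UMIs of a cell (linear up to 1, then log), for NK cell-like cells ranked from the highest, in percent of each library's cells. The control curve of Gzmc runs above the cKO curve along its whole length and that of Gzmb along most of it, and the Gzma curves lie close together.

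Gzmb and Gzmc shared cells, and Gzma did not go with them. In control, 68.6% (50.7 to 83.2) of cells with Gzmc also had Gzmb, against 14.2% (8.47 to 21.7) of cells without Gzmc. In cKO these shares were 64.3% (48.0 to 78.5) and 18.7% (13.96 to 24.2). Prf1 went with Gzmb in the same way, in 65.9% against 31.6% of control cells and 66.7% against 33.2% of cKO cells. Gzma stood apart. Gzmb was found in 25.5% of control cells with Gzma and 26.9% of those without, and in 31.9% and 22.2% in cKO, with overlapping intervals in both libraries. Prf1 was found in 42.55% of control cells with Gzma and 39.8% of those without, and in 52.1% (41.6 to 62.5) and 36.5% (29.6 to 43.8) in cKO. Cells with Gzmc were deeper than those without in control (medians of 6823 and 4376 UMIs) but near the same depth in cKO (4162 and 4007). Cells with Gzmb were deeper than those without in both libraries (6168 and 4544 UMIs in control, 4528.5 and 3763 in cKO).

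NK cell-like cells formed 5 clusters, and the libraries filled them unequally. Cluster 1 held 41 control cells and 1 cKO cell and was led by Ifit1, Ifit3 and Cxcl10, genes induced by interferon. It also carried T cell and epithelial markers: its control cells had the 13 NK cell markers at 4780 CPM, the alpha beta T cell markers at 1035 CPM, the gamma delta T cell markers at 954 CPM and the 6 epithelial markers at 483 CPM. Without it the log2 ratio of Gzmb over the class was -0.69 instead of -0.97, and further values without it stand beside the results below. Cluster 3 (32 and 18 cells) had Serpine2 and Gpr174 among its leading genes. Cluster 4 held 23 control and 74 cKO cells, cluster 8 held 28 and 84, and cluster 9 held 31 and 106. Most control cells were thus in clusters 1, 3 and 9 and most cKO cells in clusters 9, 8 and 4. With 1 library per group, a cluster drawn from 1 library cannot be told apart from that library. The 8 markers of tissue-resident NK cells summed to 2621 and 2492 CPM in cluster 4, against 447 and 624 CPM in cluster 3. The 8 markers of conventional NK cells reached 704 CPM in the control cells of cluster 3, and 225 to 416 CPM in the other 4 clusters. Empty droplets held that conventional list at 328 and 389 CPM, so only the first of these values stood well above free RNA. That list includes Cma1, also a mast cell marker. Cma1 had 22.5 and 4.8 CPM in NK cell-like cells and 9624 and 5234 CPM in mast cell-like cells. Its part in the empty droplet sums was not tested.

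Gzmb and Gzmc were genes of cluster 4. Its control cells had Gzmc at 2393 CPM (2152 to 2655) and Gzmb at 1904 CPM (1689 to 2139). Its cKO cells had 307 CPM (255 to 368) and 891 CPM (800 to 990.2), so both were lower in cKO within the cluster as well. They made up 14.8% of control NK cell-like cells, yet held 67.9% of the Gzmc and 48.9% of the Gzmb UMIs. Another 42.9% of the control Gzmb UMIs were in cluster 1. Prf1 was also highest in cluster 4, at 530 CPM in control and 375 CPM in cKO.

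Gzma followed other cells. In control its level was 2487 CPM (2251 to 2741) in cluster 3, which held 59.2% of its UMIs, and 188 to 660 CPM in the other clusters. In cKO no cluster with at least 18 cells stood out, with levels from 561 to 816 CPM, among them 758.5 CPM (600.5 to 945) in cluster 3. Within each of the 3 clusters with at least 20 cells in both libraries the direction was opposite to that of the class. Gzma was higher in cKO in cluster 4 (188 and 633 CPM), cluster 8 (242 and 561 CPM) and cluster 9 (339 and 816 CPM), with a mean log2 ratio of 1.39. All 28 control Gzma UMIs of cluster 4 were in 1 of its 23 cells. Cluster 3, where Gzma was lower in cKO, made up 20.6% of control and 6.36% of cKO NK cell-like cells. The lower Gzma level of the whole class in cKO thus went both with a smaller part of its cells in cluster 3 and with a lower level within that cluster. This within-cluster mean was chosen after the data were seen.

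**Figure D4:**
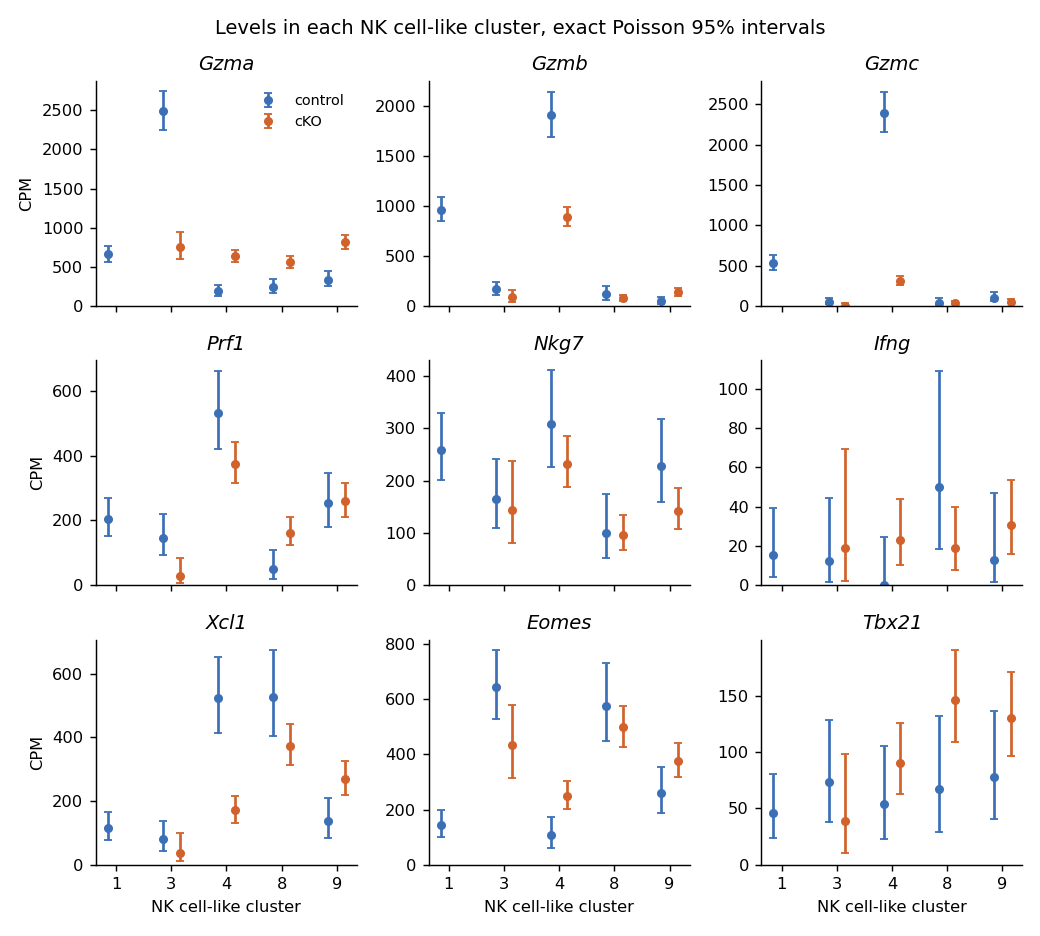
Level of each gene (CPM, linear axes from 0) in each of the 5 NK cell-like clusters, control in blue and cKO in orange, with exact Poisson 95% intervals. The single cKO cell of cluster 1 is not drawn. Gzma is highest in cluster 3 of control (2487 CPM), and Gzmb and Gzmc in cluster 4 of control (1904 and 2393 CPM).

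In the same 3 clusters Gzmc was lower in cKO in all 3, with log2 ratios from -2.94 to -0.10, and only in cluster 4 did the libraries' intervals lie apart. Nkg7 was lower in all 3 by small amounts, from -0.66 to -0.06. Gzmb was lower in clusters 4 and 8 and higher in cluster 9 (45.6 and 135 CPM), which gave a mean of -0.05. Prf1 was higher in cluster 8 (50.1 and 162 CPM) and lower in cluster 4, by a ratio of 0.707 (0.534 to 0.942). In cluster 9 it had 254 and 260.1 CPM, with overlapping intervals.

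Of the cytokine genes, Xcl1 had nearly the same class level in both libraries. It had 205 UMIs in control (243 CPM, 211 to 278) and 311 in cKO (249 CPM, 222 to 278), a ratio of 1.02 (0.857 to 1.23). A UMI of Xcl1 was found in 38.7% of control and 44.9% of cKO NK cell-like cells. That agreement covered opposite values in the clusters: 523 CPM in control and 171 CPM in cKO in cluster 4, 526 and 374 CPM in cluster 8, and 137 and 268 CPM in cluster 9. Of the 78 control Xcl1 UMIs in cluster 4, 38 were in 1 of the 23 cells. Without cluster 1 the log2 ratio of Xcl1 was -0.26 instead of 0.04.

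Ifng was barely counted. NK cell-like cells had 14 UMIs in control (16.6 CPM, 9.06 to 27.8) and 30 in cKO (24.0 CPM, 16.2 to 34.3). The ratio of 1.45 had an interval of 0.745 to 2.96, so a difference could not be detected with so few UMIs. It was found in 10 of 155 control and 22 of 283 cKO cells. Of those cells, 6 and 15 also had Xcl1. Empty droplets held 14 Ifng UMIs in control (5.43 CPM) and 0 in cKO.

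The T-box factors were higher in cKO over the whole class. Tbx21 had 52 UMIs in control (61.5 CPM, 46.0 to 80.7) and 143 in cKO (114 CPM, 96.4 to 135), a ratio of 1.86 (1.34 to 2.60). It was also higher in cKO in each of clusters 4, 8 and 9, with log2 ratios of 0.70, 1.07 and 0.70 on 8 to 12 control UMIs each. Eomes had 267 UMIs in control (316 CPM, 279 to 356) and 470 in cKO (376 CPM, 343 to 412), a ratio of 1.19 (1.02 to 1.39). The Eomes difference did not outlast small changes: its log2 ratio of 0.25 was -0.06 without cluster 1 and -0.05 with each cell thinned to 1000 UMIs. Within clusters Eomes was higher in cKO in cluster 4 (107 and 248 CPM) and cluster 9 (260 and 375 CPM) and lower in cluster 8 (576 and 497 CPM). Eomes was found in 58.1% and 62.2% of NK cell-like cells and Tbx21 in 27.1% and 33.6%.

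Taken as a list, the 9 genes were not shifted in 1 direction in NK cell-like cells. None of the 9 was at least 2-fold higher in cKO, where 2.83% of 8347 genes at 10 CPM or more were. Only Gzmc was at least 2-fold lower, where 4.11% of genes were. The median log2 ratio of the 9 was 0.04, beside 0.13 over all those genes, and -0.26 without cluster 1 beside 0.09. All 9 passed the minimum of 10 CPM in this class. Across 19 other settings the Gzmc ratio kept its sign in every one, between -2.40 and -1.29. Gzmb kept its sign too but ran from -1.99, among cells with at least 2000 UMIs, to -0.05 within clusters. Tbx21 stayed between 0.65 and 0.88 and Nkg7 between -0.79 and -0.20.

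**Figure D5:**
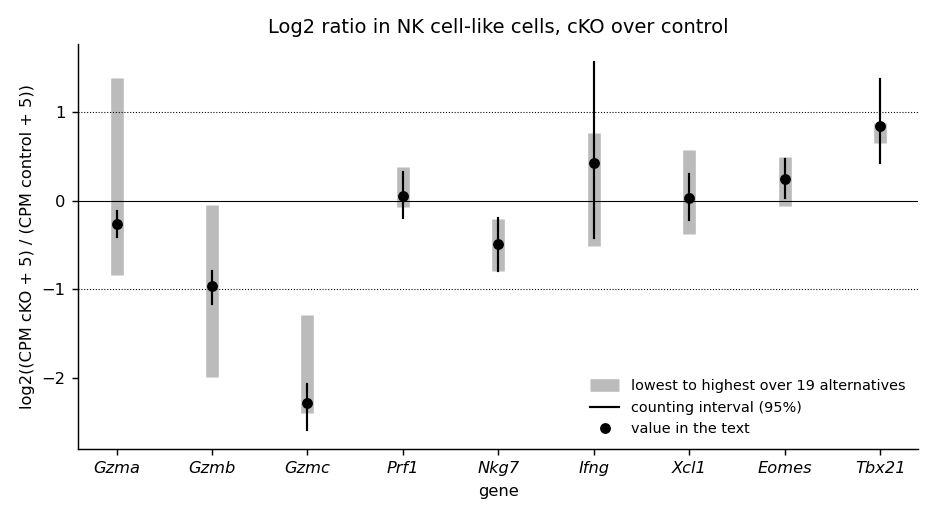
Log2 ratio of cKO over control in NK cell-like cells with 5 CPM added to both levels (points), its counting interval (black lines) and the span over 19 other settings (grey bars), dotted lines marking 2-fold. Gzmc stays below -1 throughout, Tbx21 above 0, and the Gzma bar crosses 0, from -0.84 to 1.39.

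Alpha beta T cell-like cells, 64 in control and 114 in cKO, had UMIs of 8 of the 9 genes, Gzmc being at 0 in both libraries. Eomes was the most widely kept, with 32 UMIs in control (129 CPM, 88.0 to 182) and 61 in cKO (158 CPM, 121 to 203). Gzma had 2 UMIs in control and 40 in cKO (104 CPM, 74.0 to 141), a ratio of 12.9 with an interval of 3.34 to 110. Those 40 UMIs were in 9 cells, and 1 cell had 15 of them. Tbx21 went the other way from NK cell-like cells, with 15 UMIs in control (60.3 CPM, 33.8 to 99.5) and 8 in cKO (20.7 CPM, 8.95 to 40.8), a ratio of 0.344 (0.126 to 0.863). At least 2-fold higher in cKO were 2 of the 9 (8.85% of genes in this class), one of them Gzmb with 0 and 2 UMIs. At least 2-fold lower were Nkg7 (8 and 4 UMIs) and Tbx21, where 7.03% of genes were. The median of the 9 was 0.00. Of the 9, 7 passed 10 CPM, with a median of -0.46 beside 0.07 over all genes that passed.

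Gamma delta T cell-like cells, 82 in control and 273 in cKO, had nearly none of the programme. Gzma, Gzmb, Gzmc, Prf1, Nkg7, Ifng and Tbx21 had 0 to 4 UMIs in control and 1 to 6 in cKO. Eomes had 0 UMIs in control and 34 in cKO, and Xcl1 had 1 and 21. At least 2-fold higher in cKO were these 2 of 9 genes, where 5.51% of genes were, and none was at least 2-fold lower, where 2.1% were. All 34 Eomes and all 21 Xcl1 UMIs were in cluster 13, which held 9 cKO cells at a median of 10053 UMIs and no control cell. Its NK cell markers summed to 3646 CPM, with 11 of 13 above 10 CPM and Klra9 and Klrb1f at 0, and its gamma delta T cell markers to 2255 CPM. In the other gamma delta T cell-like clusters of cKO the NK cell markers summed to 1029 and 1553 CPM. Nearly all of that was Il2rb, with 981 and 1482 CPM, against 2319 CPM in cluster 13. The part of these markers in the Eomes and Xcl1 counts was not tested. Without that cluster Eomes had 0 UMIs in both libraries and the log2 ratio of Xcl1 was -0.66 instead of 1.64. The median of the 9 was 0.43, and -0.66 without the cluster. The 3 that passed 10 CPM had a median of 1.64, beside 0.11 over all genes that passed.

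Outside lymphocytes and mast cells, wherever a class of 1 library had more than 10 Gzma UMIs, most were in a single cell. In cKO dendritic cell-like cells 40 of the 44 Gzma UMIs were in 1 of 204 cells, against 1 UMI in control. In cKO fibroblast-like cells 32 of the 35 were in 1 of 1348 cells, and in cKO macrophage or monocyte-like cells all 14 were in 1 of 231. Control macrophage or monocyte-like cells had 15 of 17 in 1 of 320. Eomes was less concentrated, with 26 UMIs in 8 cKO dendritic cell-like cells and 10 UMIs in 10 control epithelium-like cells. The fibroblast-like cell with those 32 UMIs had 21353 UMIs in all, against a class median of 10074. Scrublet, a doublet caller, marked 4 of 7076 cells (0.0565%), too few to have worked, so cells that hold 2 cell types must be taken to remain.

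Other genes of the pathway, from lists chosen with earlier results of these data known, were read in the same NK cell-like cells. Of 16 further granule genes 14 passed 10 CPM, 1 was at least 2-fold higher in cKO and 3 lower. Of all genes of the class at 10 CPM or more, 2.83% were at least 2-fold higher and 4.11% lower. Without cluster 1 these shares were 2.95% and 2.31%. The higher one was Serpinb9, the inhibitor that shields killer cells from their own granzyme B, at 452 and 926 CPM (log2 ratio 1.03, and 0.98 without cluster 1). Gzmd (121 and 41.6 CPM), Gzme (112 and 33.6 CPM) and Gzmk (20.1 and 6.4 CPM) were lower, Gzmd and Gzme within the limits on shared windows given above. Without cluster 1 Gzmk had 15.4 and 6.41 CPM, a log2 ratio of -0.84, which left 2 genes at least 2-fold lower. Gzmf, in the same gene cluster, had 59.2 and 57.6 CPM, but 41 of its 50 control UMIs were in cluster 1, without which it had 15.4 and 57.7 CPM and took the place of Serpinb9 as the 1 gene at least 2-fold higher. Granule machinery was near level: Lamp1, Unc13d, Rab27a, Stx11 and Stxbp2 had log2 ratios from -0.04 to 0.12. Without cluster 1 these ran from -0.08 for Unc13d to 0.38 for Stxbp2.

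Of 8 death ligands and further effector cytokines 5 passed 10 CPM, with 2 higher and 1 lower by at least 2-fold. Of all genes, 2.83% were higher and 4.11% lower by this rule. Ccl4 had 18.9 and 44.8 CPM, or 10.2 and 44.9 CPM without cluster 1, and Ccl3 had 0 and 20 UMIs, where 3 UMIs in control would be 3.55 CPM. Ccl5, a chemokine of cytotoxic lymphocytes, was lower in cKO at 1652 and 782 CPM (log2 ratio -1.08, and -1.31 without cluster 1). Fasl, the ligand of the Fas death receptor, had 212 and 348 CPM, a log2 ratio of 0.70 (0.46 to 0.98), or 0.46 without cluster 1.

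Among inducers and regulators the cytokine receptors differed in direction. Of 19 genes 14 passed 10 CPM, and none was at least 2-fold higher in cKO (of all genes, 2.83% were higher and 4.11% lower). Genes at least 2-fold lower there included Il18r1 (86.4 and 18.4 CPM), Il18rap (98.2 and 38.4 CPM), Il12rb1 (30.8 and 8.8 CPM) and Prdm1 (29.6 and 8.8 CPM). Il18r1 and Il18rap are the 2 chains of the interleukin-18 receptor, for a cytokine that promotes interferon gamma release. Il2rb, the receptor chain shared by interleukin-2 and interleukin-15, was higher at 2457 and 3760 CPM, a log2 ratio of 0.61 (0.54 to 0.69), or 0.44 without cluster 1. Il2rb was also among the markers that named the NK cell-like clusters. Without cluster 1 the log2 ratio was -1.86 for Il18r1, -1.35 for Il18rap and -1.06 for Prdm1, but -0.43 for Il12rb1, which was then no longer 2-fold lower. Of 10 genes of the interferon gamma receptor and its targets 5 passed 10 CPM. None was at least 2-fold higher and 1 was lower, beside the same shares of all genes. The lower one was Gbp2 at 140 and 56.8 CPM, whose log2 ratio of -1.23 was -0.44 without cluster 1.

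The genes whose levels went most closely with each of the 9 were then listed over 28 pairs of class and library with at least 20 cells. The NK cell-like clusters were not separate points, so r does not describe differences among them. These points come from the same 2 libraries, so Pearson's r is given as a description. Gzmc went with Gzme (0.98), Gzmf (0.94) and Gzmd (0.93), its neighbours on chromosome 14. Gzmb went with Sh2d1b1 (0.92), and its r with the other 8 genes was only 0.31 to 0.68. For the others the closest genes were Gpr18 for Gzma (0.91), Fcrl6 for Prf1 (0.96), Klra9 for Nkg7 (0.97), Cd160 for Ifng (0.95) and Xcl1 (0.97), Fasl for Eomes (0.96) and Samd3 for Tbx21 (0.96).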

How the data were processed

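The authors deposited raw UMI counts per gene and barcode for 2 libraries (Cell Ranger 4 per the file headers, 6.1.1 with mm10 per the submitters' processing notes), with all droplets and no cell filter or annotation. Depth was 45035801 and 34261441 UMIs. Cells passing the filter were clustered in scanpy 1.11.5 (Python 3.11.15) on 2000 variable genes, 30 components, 15 neighbours and resolution 1, and T or NK cells then again, in both steps without the 9 genes and 53 related ones. Names came from marker lists. UMIs were summed per class and library and divided by the class total (CPM). Ratios were formed in classes with 50 cells or more in both libraries, on the log2 scale with 5 CPM added, with exact Poisson, Clopper-Pearson and conditional intervals from scipy 1.17.1. Doublets and free RNA were left in. The comparison was tested on simulated data. All 9 genes are named, and further genes come from 4 lists. The genes, lists and markers were chosen with earlier results of these data known. Sequences are from RefSeq (GRCm38.p6), in which all 9 genes had a promoter entry. Of the gene IDs 99.85% were found in GENCODE vM21, whose build matches mm10. Nothing between groups was tested, since each has 1 library. Some genes of these lists are not reported here.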

Additional observations from a re-analysis of the deposited data

Results flagged for a closer look

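In 5 cases a gene differed in opposite directions in NK cell-like cells and in another class, with counting intervals that exclude no difference in both; with 1 library per group none of these differences was tested. The Gzma log2 ratio was higher by 3.32 in alpha beta T cell-like than in NK cell-like cells, on 2 and 40 UMIs in the former. It was higher by 2.63 in dendritic cell-like cells, where 1 cKO cell held 40 of 44 UMIs. It was higher by 0.75 in fibroblast-like cells, where 1 cKO cell held 32 of 35 UMIs. The Gzma log2 ratio in NK cell-like cells, -0.26, was itself not stable. Over 19 other settings it ran from -0.84 to 1.39 and was reversed in 2. The Nkg7 log2 ratio was higher by 1.14 in macrophage or monocyte-like than in NK cell-like cells, on 1 and 6 UMIs. The Tbx21 log2 ratio was higher by 2.19 in NK cell-like than in alpha beta T cell-like cells, on 52 and 143 UMIs in NK cell-like cells and 15 and 8 in the others. What part cells holding 2 cell types had in these counts was not tested.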

How the results depend on the processing

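No paired analysis was possible because each group has 1 library. The higher NK cell-like share in cKO (log2 ratio 0.83) was 0.19 outside the epithelium, -0.24 among T or NK cell-like cells and 1.25 without clusters drawn over 90% from 1 library, of which cluster 1 was NK cell-like. Without those clusters the log2 ratio was -0.0615 for Eomes in NK cell-like cells and -0.66 for Xcl1 in gamma delta T cell-like cells, which was -0.65 with the second clustering at resolution 0.6. Thinning to 1000 UMIs gave -0.047 for Eomes and 0.061 for Gzma. The mean within clusters gave 1.39 for Gzma, a median of 0.38 for the 9 genes, and 1 gene at least 2-fold higher in place of 0. Of the 9 genes 2 in place of 1 were at least 2-fold lower with at least 2000 UMIs, after thinning, with interferon-stimulated genes left out of or the 9 and related genes kept in clustering, at resolution 0.6 and with median of ratios scaling. That scaling moved the median of all genes in NK cell-like cells from 0.13 to 0.01. Of 359 values recomputed, 326 stayed within 1 counting interval, or within 1.5 times a count, of the reported one. The causes of these shifts were not tested. Ifng, with 14 and 30 UMIs, is limited by depth, and the spread between mice is unknown.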

Other observations

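The cells that answer or call NK cells also differed between the libraries, read here as values without replicates. Dendritic cell-like cells came from different clusters in the libraries: cluster 18 held 100 control and 202 cKO cells, and cluster 24, with the interferon-induced Ifit1bl1 among its leading genes, held 51 and 2. In dendritic cell-like cells Il15, the cytokine that sustains NK cells, had 184 UMIs in 151 control cells (112 CPM, 96.8 to 130) and 46 in 204 cKO cells (25.2 CPM, 18.4 to 33.6). Without cluster 24, a check chosen after the data were seen, it had 31.0 and 25.4 CPM, so the difference in Il15 was nearly all in that cluster. In macrophage or monocyte-like cells Il15 had 52.2 and 23.4 CPM. Il12b, a subunit of the NK-activating interleukin-12, was higher in cKO dendritic cell-like cells, at 14.1 and 41.1 CPM on 23 and 75 UMIs, and at 20.04 and 41.5 CPM without cluster 24. Xcr1, the receptor of Xcl1, had 106 and 82.7 CPM there, with overlapping intervals of 90.5 to 123 and 70.0 to 97.0 CPM, and 145 and 83.5 CPM without cluster 24.

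Some targets of interferon gamma had lower levels in cKO in the same cells. Cxcl9 had 186 UMIs in control dendritic cell-like cells (114 CPM) and 0 in cKO, where 3 UMIs would be 1.64 CPM, and 95.4 and 12.6 CPM in macrophage or monocyte-like cells. Gbp2 had 674 and 71.7 CPM in dendritic cell-like and 297 and 51.5 CPM in macrophage or monocyte-like cells. Without cluster 24, control and cKO dendritic cell-like cells had Cxcl9 at 8.2 CPM and 0 UMIs, and Gbp2 at 185 and 64.7 CPM. Other genes of that list differed less or went the other way: in all dendritic cell-like cells Socs1 had 73.9 and 42.7 CPM, Irf1 161 and 123 CPM, Cd274 761 and 751 CPM, Ifngr1 141 and 200.4 CPM, Ifngr2 129 and 163 CPM and Ciita 50.1 and 87.0 CPM. The median log2 ratio of the 8 genes of the list at 10 CPM or more was -0.20 there, beside 0.22 over all genes. Of 7 such genes in macrophage or monocyte-like cells the median was -0.74, beside 0.08 over all genes. Ifng itself had 14 and 30 UMIs in NK cell-like cells. In alpha beta T cell-like cells the chemokine Ccl4 had 2 UMIs in control and 53 in cKO.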
